A study of Mus musculus with 6 samples.

Results

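The Hsp70, Hsp90 and J protein (DnaJ) chaperone genes of the mouse were followed in purified germ cells of wild-type (WT) and Rnf8 knockout (KO) males. Members were all array clusters assigned to a single gene whose symbol begins with Dnaja, Dnajb, Dnajc, Hspa, Hsph or Hsp90. Where a gene had several such clusters the one of highest mean was used, and a log2 intensity of 6 or more was required on at least 1 array. The rule gave 60 genes of 17925 tested: 45 J proteins and 15 genes of the Hsp70, Hsp110 and Hsp90 families. No gene was lost to the level rule, and the members nearest above it, Dnajc22 and Hspa12b, reached 7.54 and 7.99. Of 62 coding genes with these prefixes in the RefSeq table, Hsp90ab1 was not used here, and Hspa1b had only a cluster shared with Hspa1a.

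RNA came from 6 arrays (Affymetrix MoGene 1.0 ST) of C57BL/6 cells: 2 of WT and 2 of KO pachytene spermatocytes, the cells in meiotic prophase, and of round spermatids, the haploid cells that follow, 1 WT and 1 KO. Rnf8, the gene removed in the KO, encodes a ubiquitin ligase of the DNA damage response that also acts on the sex chromosomes of meiotic cells. Per the labels, cells of several males were pooled and separated by sedimentation, while the sources used here do not state the males' age or the KO allele's structure. Nothing in the labels ties replicate arrays to separate preparations. The p-values therefore describe the spread among these arrays alone, which may be technical.

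Hsp70 proteins bind exposed stretches of unfolded protein and release them in a cycle driven by ATP. J proteins bring them their clients and trigger ATP hydrolysis through the J domain. Hsp110 proteins act mainly as exchange factors that let Hsp70 release ADP, and Hsp90 takes over clients near their folded state, such as kinases and hormone receptors. Spermatogenic cells are known for their own members of these families, among them Hspa2, made in meiosis, and Hspa1l, made mainly after it. Outside germ cells the stress-inducible members are switched on by heat shock factors, and those of the endoplasmic reticulum (ER) by the unfolded protein response.

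Pachytene and spermatid marker lists followed the labels. Of 10 pachytene markers 7 were lower and none higher in round spermatids, and of 13 spermatid markers 11 were higher and none lower (limma, adjusted p under 0.05). The spermatid markers also gave signal on the pachytene arrays, with a summed intensity of 38375 to 48670. On the WT and KO spermatid arrays it was 71594 and 70119. The 1 cluster of Rnf8, which it shares with the readthrough gene Gm28043, read 8.51 and 8.86 in WT and 7.86 and 8.05 in KO pachytene cells, and 7.78 in WT and 7.50 in KO round spermatids. Its place relative to the deletion is unknown here, which limits it as a check of the labels. Lists of other testis cells differed. Genes passed more often in the Sertoli (57.1%) and Leydig (85.7%) lists than among all tested genes (34.9%), but not in the other lists below. Of 14 Sertoli markers 8 were lower in round spermatids, with a summed intensity of 6813 to 8680 on the pachytene arrays and 4040 and 4789 on the spermatid arrays. Of 7 Leydig markers 6 were lower, with 4962 to 7193 and 1270 and 1557. Of 10 peritubular and vessel markers Dcn and Vwf were higher and the other 8 did not pass. Their summed intensity was 2597 to 3162 on the pachytene arrays and 3939 and 5026 on the spermatid arrays, but without Dcn it was 2282 to 2883 against 2390 and 2935. Of 9 macrophage and blood markers 3 were higher (33.3%), and of 10 spermatogonial markers 1 was higher and 1 lower (20%). No marker with a cluster lay below log2 6 on every array. In these bulk fractions fewer cells of a type and less RNA per cell cannot be told apart, and the part of other cells in the differences below was not tested.

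Promoters were read to show what control sequences the members carry. The RefSeq promoter table (GRCm38.p6) held 63 windows for 48 of the 60 members, and the 250 bases before each transcript start were searched on both strands. The ER stress element (ERSE, CCAAT and CCACG with any 9 bases between them), through which the unfolded protein response acts, was in 37 of 32851 windows of all genes (0.113%) and in 3 windows of members (4.76%). These were the windows of Hspa5 (BiP, the Hsp70 of the ER), Hsp90b1 (Grp94, its Hsp90) and Dnajc3 (P58IPK, an ER J protein that also restrains the eIF2 alpha kinase PERK), all genes of the ER. Their windows are shown because these 3 genes are compared below. Each is printed 5′ to 3′ along the gene, and capitals mark every ERSE and every CCAAT box, which the ERSE contains, on either strand. Hsp90b1 has 2 elements, in opposite orientation.
Hspa5 (chr2:34771840-34772089, plus strand): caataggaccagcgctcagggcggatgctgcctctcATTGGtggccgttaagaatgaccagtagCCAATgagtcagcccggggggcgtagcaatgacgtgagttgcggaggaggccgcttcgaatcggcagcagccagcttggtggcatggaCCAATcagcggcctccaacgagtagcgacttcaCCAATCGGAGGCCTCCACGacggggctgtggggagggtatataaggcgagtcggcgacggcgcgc
Hsp90b1 (chr10:86705445-86705694, minus strand): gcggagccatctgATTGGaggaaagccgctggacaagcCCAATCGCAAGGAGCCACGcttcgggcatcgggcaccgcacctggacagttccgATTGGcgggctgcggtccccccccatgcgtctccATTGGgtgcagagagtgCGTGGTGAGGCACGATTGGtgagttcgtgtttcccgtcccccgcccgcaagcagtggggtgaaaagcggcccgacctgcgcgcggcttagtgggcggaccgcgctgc
Dnajc3 (chr14:118937682-118937931, plus strand): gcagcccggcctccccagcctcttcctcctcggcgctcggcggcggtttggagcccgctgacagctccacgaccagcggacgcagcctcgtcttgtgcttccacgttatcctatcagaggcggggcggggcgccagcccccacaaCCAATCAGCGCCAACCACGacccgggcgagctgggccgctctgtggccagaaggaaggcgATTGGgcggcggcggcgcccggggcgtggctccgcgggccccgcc

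The heat shock element was searched as its smallest form, GAANNTTC or TTCNNGAA, each its own reverse complement. One or the other was in 12.8% of all windows and in 15.9% of the members' windows, or 10 of 63. Of the 8 members that held it, Hspa1a and Dnaja4 rose and Dnaja1, Dnajb4, Dnajb6, Dnajc10, Dnajc27 and Hsph1 did not pass. It was thus in 2 of 11 matched members that rose (18.2%), in 0 of 7 that fell (0%) and in 6 of 30 that did not pass (20%). Counted by gene in the same way, 16.7% of the 48 matched members and 14.5% of all genes held it. Without a window, and so not searched, were Dnajc2, Dnajc5, Dnajc5b, Dnajc11, Dnajc12, Dnajc18, Dnajc22, Dnajc30, Hspa8, Hspa9, Hspa13 and Hsp90aa1. The element lay before Hspa1a, the stress-inducible Hsp70, and in the second of 2 windows of Dnaja4, a farnesylated cytosolic J protein. These windows are shown as examples of the element, not because it goes with a rise. Capitals mark the element, present once in Hspa1a and at 2 places in Dnaja4, and the CCAAT box of Hspa1a. A match is a string of letters, not evidence that a factor binds there.
Hspa1a (chr17:34972157-34972406, minus strand): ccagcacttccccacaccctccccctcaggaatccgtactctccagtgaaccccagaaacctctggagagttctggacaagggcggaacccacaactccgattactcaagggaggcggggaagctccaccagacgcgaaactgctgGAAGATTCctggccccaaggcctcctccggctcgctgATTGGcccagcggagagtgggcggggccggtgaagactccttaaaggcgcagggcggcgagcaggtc
Dnaja4 (chr9:54699309-54699558, plus strand): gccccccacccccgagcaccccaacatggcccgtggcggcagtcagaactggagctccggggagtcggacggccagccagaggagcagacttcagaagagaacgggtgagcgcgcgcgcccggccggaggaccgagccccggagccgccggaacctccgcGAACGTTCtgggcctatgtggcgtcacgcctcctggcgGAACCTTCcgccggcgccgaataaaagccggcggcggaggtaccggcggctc

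The testis members Hspa2, Hspa1l, Dnajb7 and Dnajb8 had neither form of the heat shock element, no ERSE and no cyclic AMP response element (TGACGTCA, in 1.55% of all windows) in these letters. Capitals mark their CCAAT boxes, of which Dnajb8 has none. Hspa1l and Hspa1a are neighbours on chromosome 17 that point away from each other, with starts 547 bases apart.
Hspa2 (chr12:76404120-76404369, plus strand): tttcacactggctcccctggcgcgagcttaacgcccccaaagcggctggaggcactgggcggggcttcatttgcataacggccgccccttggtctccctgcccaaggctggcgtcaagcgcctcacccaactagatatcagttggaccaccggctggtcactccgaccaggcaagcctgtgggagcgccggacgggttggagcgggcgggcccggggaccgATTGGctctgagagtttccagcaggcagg
Hspa1l (chr17:34972453-34972702, plus strand): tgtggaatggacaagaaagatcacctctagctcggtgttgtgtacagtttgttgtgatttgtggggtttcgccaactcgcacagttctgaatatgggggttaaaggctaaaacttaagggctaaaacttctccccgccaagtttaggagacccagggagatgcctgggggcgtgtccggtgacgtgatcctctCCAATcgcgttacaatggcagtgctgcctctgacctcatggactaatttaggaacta
Dnajb7 (chr15:81408274-81408523, minus strand): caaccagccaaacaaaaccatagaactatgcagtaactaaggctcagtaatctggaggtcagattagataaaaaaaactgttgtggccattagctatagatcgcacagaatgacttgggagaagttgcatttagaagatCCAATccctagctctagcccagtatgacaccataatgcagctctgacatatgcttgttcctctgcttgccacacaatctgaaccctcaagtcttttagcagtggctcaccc
Dnajb8 (chr6:88222018-88222267, plus strand): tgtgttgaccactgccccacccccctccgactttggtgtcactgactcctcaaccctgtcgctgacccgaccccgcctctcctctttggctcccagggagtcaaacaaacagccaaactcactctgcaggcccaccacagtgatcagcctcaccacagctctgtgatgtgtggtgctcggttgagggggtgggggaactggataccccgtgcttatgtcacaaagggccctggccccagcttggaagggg

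Between pachytene spermatocytes and round spermatids, 25 of the 60 members changed: 14 rose and 11 fell (limma with genotype as a term, adjusted over all tested genes). That is 23.3% up and 18.3% down, against a background of 17.8% and 17.1% of all tested genes, so the shares lie near those of genes at large. The median member differed by -0.04 on the log2 scale, the median gene by -0.06. Changes were moderate. The J proteins Dnaja4, Dnajb7, Dnajc5b and Dnajb8 rose at least 2-fold, and Dnajc28 and Dnajc11 fell 2.01-fold and 2.00-fold. Among all tested genes 7.19% passed with a rise and 4.18% with a fall of at least 2-fold. With only 2 spermatid arrays the calls leaned on both. Without the WT or without the KO spermatid array fewer members passed, as did fewer of all tested genes. Dnajb7, Dnajb12, Dnajb13, Dnajb14, Dnajc5, Dnajc8, Dnajc9, Dnajc12, Dnajc13, Hsp90b1, Hspa1l, Hspa8 and Hspa12a were lost without either one. Dnajc3, Dnajc19 and Hspa13 were lost without the WT array, and Hspa1a and Hspa12b without the KO array. Dnaja4, Dnajb8, Dnajc5b, Dnajc11, Dnajc18, Dnajc28 and Hspa14 kept their call whichever of the 6 arrays was left out. The share of all tested genes that did so was not counted. More members passed without KO pachytene array 1 than with all arrays, as did more of all tested genes. All 25 kept their sign throughout and had both spermatid arrays outside the range of the 4 pachytene arrays. So did 15 members that did not pass, since 20 members lay wholly above (33.3%) and 20 wholly below, against 24.1% and 26.4% of all tested genes. In the plot of differences by role, every group with more than 3 members has members on both sides of 0.

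**Figure D1:**
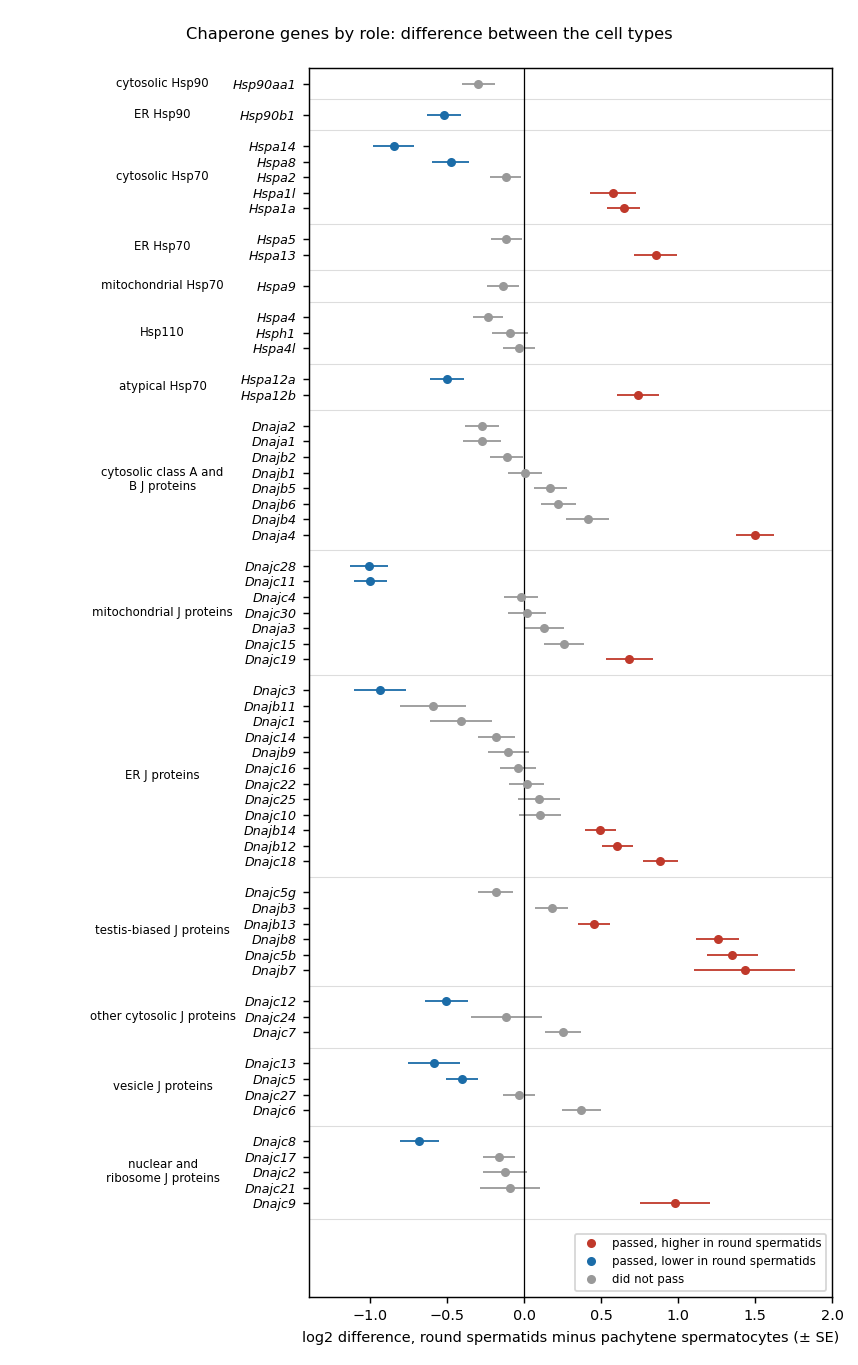
Log2 difference between round spermatids and pachytene spermatocytes for the 60 chaperone genes, grouped by role, with points for the fitted difference and bars for its SE (2 spermatid against 4 pachytene arrays). The 14 genes that passed with a rise are red, the 11 with a fall blue and the other 35 grey; the testis-biased J proteins Dnajb7, Dnajc5b and Dnajb8 and the cytosolic Dnaja4 lie farthest to the right.

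Among the cytosolic Hsp70 genes the members moved apart. Hspa2, needed in meiosis for the breakdown of the synaptonemal complex and for CDK1 activity, read 12.88 and 12.86 in WT and 12.93 and 12.82 in KO pachytene cells, and 12.75 in WT and 12.75 in KO round spermatids. Both spermatid values lay just below the pachytene ones, but the shift of -0.12 (SE 0.10, adjusted p = 0.430 in limma) did not pass, and its 95% interval ran from -0.36 to 0.12. Hspa1l read 12.19 and 12.06 in WT, 12.41 and 11.92 in KO pachytene cells, and 12.75 and 12.69 in WT and KO round spermatids. Every spermatid value lay above every pachytene value, and the gene rose by 0.58 (SE 0.15, adjusted p = 0.018 in limma). The call for Hspa1l was also lost without WT pachytene array 2 (adjusted p = 0.0699 in limma). The highest value on any array lay between 13.65 and 13.77, and whether levels near it limit such differences was not tested.

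The stress-inducible Hspa1a, on a cluster of its own, read 7.58 and 7.50 in WT and 7.33 and 7.47 in KO pachytene cells and 8.16 and 8.07 in round spermatids, a rise of 0.64 (SE 0.11, adjusted p = 0.002 in limma). Its pachytene values all lay below the median of their arrays. The brighter cluster that Hspa1a shares with its near-identical copy Hspa1b, which was not tested, differed by 0.53 in the same direction. Signals of the copies cannot be told apart there.

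The constitutive Hspa8 (Hsc70) fell. It read 11.83 and 12.04 in WT and 12.33 and 12.15 in KO pachytene cells, and 11.49 in WT and 11.73 in KO round spermatids, a fall of -0.48 (SE 0.12, adjusted p = 0.014 in limma). On this cluster the KO values lay above the WT values of the same cell type on every array. The opposite held on dimmer clusters shared with Snord14c and Snord14d. The first of them read 7.57 and 7.10 in WT and 6.77 and 6.32 in KO pachytene cells, and 7.05 in WT and 6.36 in KO round spermatids. What these shared clusters report of Hspa8 was not tested. Its call was also lost without WT pachytene array 2 (adjusted p = 0.0554 in limma). Hspa14, a Hsp70 that works on the ribosome, fell from between 8.87 and 9.23 in pachytene cells to 8.15 in WT and 8.30 in KO round spermatids, by -0.85 (SE 0.13). With Hspa1a and Hspa1l higher and Hspa8 and Hspa14 lower, 4 of the 5 cytosolic Hsp70 genes changed (80%), evenly split in direction. Among all tested genes 34.9% passed, and 5 genes are too few to compare with that share. Each level belongs to its own cluster, so levels are not compared between genes.

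**Figure D2:**
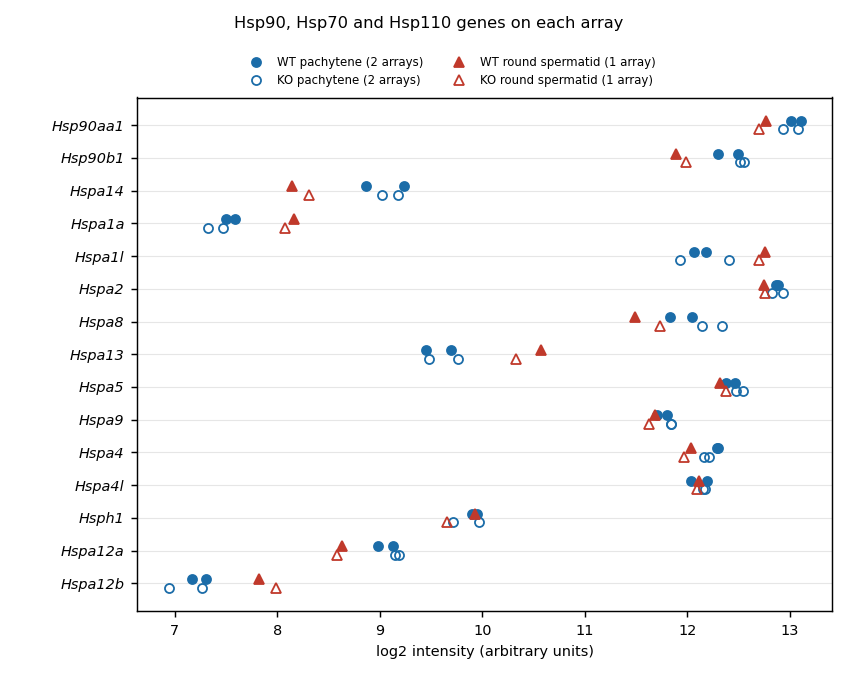
Log2 intensity of the 15 Hsp90, Hsp70 and Hsp110 genes on each of the 6 arrays, with circles for pachytene spermatocytes, triangles for round spermatids, filled symbols for WT and open symbols for KO. The spermatid triangles of Hspa1a, Hspa1l, Hspa13 and Hspa12b lie to the right of all circles, those of Hspa14, Hspa8, Hsp90b1 and Hspa12a to the left. Those of Hspa2 lie just left of its circles.

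The ER chaperones with an ERSE did not share a call. Hspa5 read between 12.38 and 12.54 on the pachytene arrays and 12.32 and 12.37 in WT and KO round spermatids, a difference of -0.12 (SE 0.10, adjusted p = 0.451 in limma; 95% interval from -0.35 to 0.12). Hsp90b1 read 12.50 and 12.29 in WT and 12.55 and 12.51 in KO pachytene cells and 11.89 and 11.99 in round spermatids, and fell by -0.52 (SE 0.11, adjusted p = 0.007 in limma). Dnajc3 fell by -0.94 (SE 0.17), from 10.66 and 11.27 in WT and 10.73 and 10.77 in KO pachytene cells to 10.03 in WT and 9.80 in KO round spermatids. In all 3 genes both spermatid values lay below all pachytene values. Other ER genes went up. Hspa13 (Stch), a microsomal Hsp70 with only the ATPase part, rose by 0.85 (SE 0.14), from between 9.45 and 9.76 to 10.57 in WT and 10.32 in KO.

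Of the J proteins anchored in the ER membrane 3 rose. Dnajb12 and Dnajb14, which serve the degradation of membrane proteins, rose by 0.60 (SE 0.10) and 0.49 (SE 0.10), and Dnajc18, of the same kind, by 0.88 (SE 0.12). Dnajc18 read 10.27 to 10.47 on the pachytene arrays and 11.33 in WT and 11.17 in KO round spermatids. A pair of clusters that Dnajb14 shares with Pin4 differed by 1.07 and 1.11. Of the 12 ER J proteins 3 rose, 1 fell and 8 did not pass, so 33.3% passed, near the 34.9% of all tested genes. Among the 8 was Dnajb11 at -0.60 (adjusted p = 0.0672 in limma), a BiP partner in the ER lumen. Its WT pachytene arrays read 10.26 and 11.11. Dnajb11 passed without WT pachytene array 1 (adjusted p = 0.00594 in limma), with the replicate number as a block (0.0163) and with a trended and robust prior (0.049). Dnajb9 (ERdj4), which holds the stress sensor IRE1 in check, read 12.14 and 12.20 in WT and 12.06 and 11.72 in KO pachytene cells and 11.95 and 11.90 in round spermatids, and did not pass at -0.10.

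Of the 6 testis-biased J proteins 4 rose (66.7%, against 17.8% of all tested genes) and none fell. The group was put together with earlier results of these data known, so its direction is not independent evidence. Dnajb7 read 10.37 and 10.36 in WT, 11.04 and 9.63 in KO pachytene cells, and 11.84 and 11.73 in WT and KO round spermatids, a rise of 1.43 (SE 0.33, adjusted p = 0.010 in limma). Its KO pachytene arrays were 1.41 log2 units apart, the widest gap of any member in a replicate pair. Dnajb8, known as a suppressor of protein aggregation, rose by 1.26 (SE 0.14), from 10.14 and 10.20 in WT and 10.61 and 10.24 in KO to 11.56 and 11.54. Dnajc5b, a cysteine string protein of the testis, rose by 1.35 (SE 0.17), from 10.71 and 10.51 in WT and 11.25 and 10.78 in KO to 12.17 and 12.16. For Dnajb8 and Dnajc5b the KO pachytene arrays lay above the WT ones, while the spermatid arrays differed by -0.02 in each gene, KO minus WT.

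Dnajb13, a radial spoke protein of the sperm tail, rose by 0.45 (SE 0.10), from between 12.29 and 12.41 to 12.78 on both spermatid arrays. The other two of the group did not pass: Dnajb3 (Msj1), which lies at the developing acrosome, read 12.27 to 12.41 on the pachytene arrays and 12.59 and 12.44 in WT and KO round spermatids, and Dnajc5g, another cysteine string protein, differed by -0.19 (SE 0.11). KO pachytene array 1 stood highest of the pachytene arrays for Dnajb7, Dnajb8, Dnajc5b and Dnajb13. The summed intensity of the spermatid markers was also highest there, 48670 against 38375 to 41888 on the other 3 pachytene arrays. Its part in these values was not tested, and all 4 genes kept their call without that array.

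The most positive difference of all 60 members was that of Dnaja4, outside the testis-biased group, at 1.499 (SE 0.12, adjusted p = 1.86e-04 in limma), or 2.83-fold. It read 10.10 and 10.01 in WT and 10.31 and 10.07 in KO pachytene cells, and 11.69 and 11.56 in WT and KO round spermatids, with no overlap. None of the other 7 cytosolic class A and B J proteins passed. Dnaja1 and Dnaja2, the general Hsc70 partners, differed by -0.27 and -0.28 (adjusted p = 0.140 and 0.0935 in limma), and the heat-inducible Dnajb1 by 0.00, with a 95% interval from -0.26 to 0.27. Dnajb4 lay at 0.41 (adjusted p = 0.0547 in limma), with both spermatid values above all pachytene values. Dnajb4 passed with a trended and robust prior (0.0228), with 16 added before log2 (0.048) and without KO pachytene array 1 (0.0302), and Dnaja2 with that prior (0.0474) and without that array (0.0305), as adjusted p in limma.

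**Figure D3:**
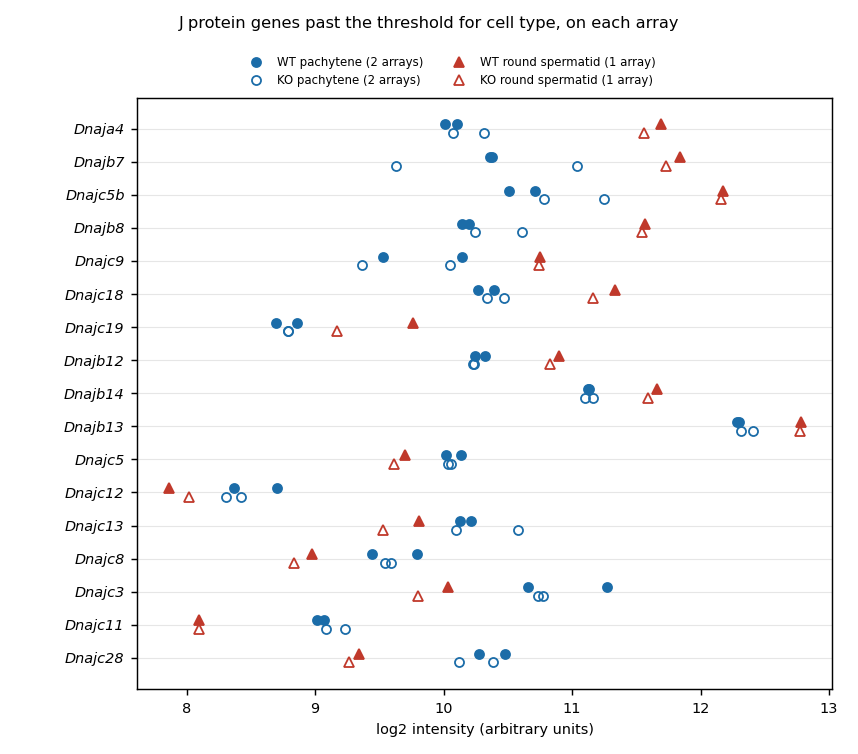
Log2 intensity on each of the 6 arrays of the 17 J protein genes past the threshold for cell type, ordered by the difference, with circles for pachytene spermatocytes, triangles for round spermatids, filled symbols for WT and open symbols for KO. No triangle falls among the circles of its gene; the circles of Dnajb7 spread most, from 9.63 to 11.04, and the triangles of Dnajc19 lie farthest apart, at 9.76 in WT and 9.17 in KO.

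The mitochondrial J proteins went both ways. Dnajc11, a protein of the cristae-organising complexes, read 9.07 and 9.01 in WT and 9.23 and 9.09 in KO pachytene cells and 8.10 on both spermatid arrays, and fell by -1.002 (SE 0.11). Dnajc28 fell by -1.01 (SE 0.12), from between 10.12 and 10.48 to 9.34 in WT and 9.27 in KO. Dnajc19 (Tim14), of the motor that pulls proteins into the matrix, rose by 0.68 (SE 0.15), from between 8.69 and 8.86 to 9.76 in WT and 9.17 in KO, so that the size of its rise differed between the spermatid arrays. The motor's own Hsp70, Hspa9 (mortalin), differed by -0.14 (adjusted p = 0.372 in limma). Dnaja3, Dnajc4, Dnajc15 and Dnajc30 did not pass; Dnajc15 differed by 0.26 and passed without KO pachytene array 1 (adjusted p = 0.0308 in limma).

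In the nucleus, Dnajc9, a co-chaperone of histones H3 and H4, rose by 0.98 (SE 0.23), from 9.53 and 10.15 in WT and 10.05 and 9.36 in KO pachytene cells to 10.75 and 10.74. The pachytene replicates of each genotype lay far apart, yet below both spermatid values. Dnajc8, a splicing factor, fell by -0.68 (SE 0.13), from between 9.44 and 9.79 to 8.98 in WT and 8.84 in KO. Of the vesicle J proteins, Dnajc5, the cysteine string protein of neurons and other cells, fell by -0.41 (SE 0.10) and Dnajc13, of endosomes, by -0.59 (SE 0.17). The 15 clusters of Dnajc13 differed by between -0.90 and -0.38, all downward, but its call was also lost without either WT pachytene array (adjusted p = 0.0683 and 0.0581 in limma) and with the replicate number as a block (0.0957). Dnajc12 fell by -0.51 (SE 0.14), a call lost without WT pachytene array 2, as was that of Dnajc5.

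The remaining Hsp genes changed little or in opposite ways. The Hsp110 genes Hspa4, Hspa4l, a form abundant in testis, and Hsph1 differed by -0.24, -0.04 and -0.09, and none passed. Hspa4 passed with a trended and robust prior (adjusted p = 0.0246 in limma) and without KO pachytene array 1 (0.0356). The 95% interval of Hspa4l ran from -0.28 to 0.21. Hsp90aa1, the cytosolic Hsp90 that male meiosis requires, read 13.10 and 13.01 in WT and 13.08 and 12.93 in KO pachytene cells and 12.76 and 12.70 in round spermatids. Both spermatid values lay below all pachytene values, at -0.30 (SE 0.11, adjusted p = 0.064 in limma), and its 3 clusters gave between -0.30 and -0.27. The gene passed with a trended and robust variance prior (adjusted p = 0.00687 in limma) and without KO pachytene array 1 (0.035). Of the distant relatives, Hspa12a fell by -0.50 (SE 0.11) and Hspa12b rose by 0.74 (SE 0.14). Hspa12b read 6.94 to 7.30 on the pachytene arrays, below the median of each array.

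Clusters of 1 gene told much the same as each other. The 3 clusters of Hspa8 gave differences of -0.43 to -0.48, those of Dnaja1 -0.27 and -0.43, and the 2 clusters of Dnajc3 held identical values. For Dnajb6, known for holding back aggregation, the cluster of its own read 9.11 to 9.53 over the arrays and differed by 0.22. By contrast the 4 clusters it shares with Gm4247 read 12.26 to 13.10 and differed by -0.26 to -0.33. Which of these reports Dnajb6 was not tested.

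The difference between the cell types was also read within each genotype. All 25 members that passed had the same sign in WT as in KO, each from its own spermatid array. They were called by a fit that combines the genotypes, so a shared sign was nearly set by that choice. The agreement is therefore no separate support. Across the 60 members the differences in WT and KO correlated at r = 0.95, and across all tested genes at r = 0.94, where genes of the same arrays are not independent. In the fit with 4 groups, which assumes that a lone spermatid array varies like the pachytene pairs, 6 members rose and 4 fell in WT (background 11.5% and 8.45%), and 6 rose and 3 fell in KO (background 8.36% and 7.18%). Of these, Dnaja4, Dnajb8, Dnajc5b, Dnajc18, Dnajc11, Dnajc28 and Hspa14 passed in both. The share of all tested genes that passed in both was not counted. Dnajc18 lost its call in KO with the replicate number as a block (adjusted p = 0.0518 in limma). Hspa14 lost its call in KO without a filter on low values and without either KO pachytene array. Without either WT pachytene array, Dnaja4, Dnajb8 and Dnajc5b remained called in both genotypes. In the fit with 4 groups, the calls within a genotype are the same as those made without the other genotype's spermatid array. They are therefore no separate support for the calls given above. The interaction passed for no gene in limma, where 130 genes and 0 members had an unadjusted p below 0.05. It was most negative for Dnajc19 at -0.60 and Dnajc2 at -0.56.

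Loss of Rnf8 changed no member past the threshold. In pachytene spermatocytes 0 of 60 passed, as did 0 of all tested genes (0%; limma, 430 genes and 1 member at an unadjusted p under 0.05). No member differed by 2-fold. Both KO arrays lay above both WT arrays for 12 members (20%, background 14.9%) and below for 7 (11.7%, background 10.2%). The largest differences were downward in Dnajc17, a spliceosome J protein, which read 9.95 and 10.07 in WT and 9.58 and 9.55 in KO, at -0.45 (SE 0.15), in Dnajc21, of ribosome assembly, at -0.30, in Dnajb9 at -0.28 and in Dnajc3 at -0.21. Upward they were 0.40 (SE 0.19) in Dnajc5b, 0.34 in Dnaja3, 0.30 in Hspa8 and 0.28 in Dnajc22. The values of Dnajc22 lay below the median of the array on every array. For Hspa2 the difference was 0.00 and for Hspa1l 0.04 (SE 0.19). Standard errors ran from 0.14 to 0.40, so small changes could not be detected with 2 arrays per genotype.

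In round spermatids, with 1 array per genotype and no test, 0 of 60 members differed at least 2-fold, against 0.385% of all tested genes (0.0335% higher and 0.351% lower). Dnajc2 (Zrf1), a J protein that serves the ribosome and also binds ubiquitinated histone H2A, read 10.74 in WT against 10.01 in KO, which is -0.735. In pachytene cells it read 10.64 and 10.53 in WT and 10.40 and 10.43 in KO. Dnajc19 differed by -0.59, Dnajc17 by -0.32 and Dnajc21 by -0.30. Upward, Dnajc22 lay at 0.35, Dnajc6 (auxilin), which strips clathrin from vesicles, at 0.24, Hspa8 at 0.24 and Dnajb6 at 0.23. The KO value was the lower one for 45 members (75%, background 40.9%), with a median of -0.07 beside 0.05 over all tested genes. That count depended on scaling, at 38 of 60 after a second quantile normalization.

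Over both cell types 0 of 60 members passed (0% of all tested genes; limma, 979 genes and 4 members at an unadjusted p under 0.05), and the smallest adjusted p of a member was 0.597. The largest differences were -0.40 in Dnajc17, -0.36 in Dnajc2, 0.31 in Dnajc22, -0.30 in Dnajc21, 0.28 in Hspa8, 0.26 in Dnajc5b, -0.22 in Dnajc3 and 0.17 in Dnaja3. Among these genes, Dnajc17 and Dnajc2 had every KO value below the WT values of the same cell type. Dnajc22 and, on clusters of its own, Hspa8 had every KO value above. Members with smaller differences did so too: Dnajb9, Dnajb12, Hspa1a and Hspa4 below, and Hspa5, Hsp90b1 and Dnajc11 above. The share of all tested genes with such a pattern was not counted. Sertoli markers had a median KO minus WT difference of 0.13 in pachytene cells and 0.23 in round spermatids, spermatogonial markers of 0.14 and 0.25, Leydig markers of -0.10 and 0.16, and peritubular and vessel markers of 0.06 and 0.32. None passed, and their part in these differences was not tested. The plot of KO against WT differences shows the 60 members around 0 in both cell types.

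**Figure D4:**
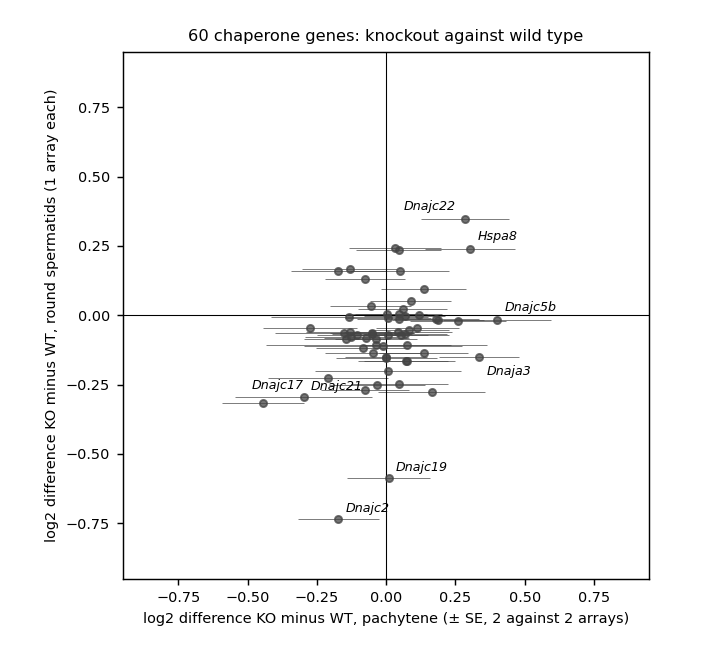
Log2 difference of KO minus WT in pachytene spermatocytes (horizontal, with SE, 2 against 2 arrays) against the same difference in round spermatids (vertical, 1 array each) for the 60 chaperone genes, with the genes of largest difference in either cell type named. No point reaches 1, a 2-fold difference, on either axis; Dnajc2 and Dnajc19 lie lowest, at -0.735 and -0.59, and Dnajc22 highest, at 0.35.

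Partners of these chaperones were called in both directions, as 34.9% of all tested genes were in one or the other. Of 24 Hsp90 co-chaperones 3 rose and 6 fell between the cell types (37.5%), with Nudcd2, of the CS domain proteins, at 1.83, the phosphatase Ppp5c at -1.48, Chordc1 at -1.10 and Ahsa2, an activator of the Hsp90 ATPase, at -0.93. Of 21 Hsp70 exchange factors and co-chaperones 5 rose and 6 fell (52.4%). Hyou1, the exchange factor of BiP in the ER, fell by -1.31 and Grpel2, that of mortalin, by -0.69, while Hikeshi, which carries Hsp70 into the nucleus, rose by 1.24 and Hspbap1 by 0.76.

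Of 5 genes of heat shock factors and their partners 1 rose and 2 fell (60%). Hsf2, a factor known for its role in spermatogenesis, read 10.04 and 10.38 in WT and 10.55 and 9.78 in KO pachytene cells and 11.40 and 11.39 in round spermatids, and rose by 1.21 (SE 0.21). Hsf5 and the Hsf2 partner Hsf2bp fell by -0.32 and -0.45. Of 15 ER lectin chaperones and oxidoreductases 3 rose and 2 fell (33.3%), with Pdilt at 1.47, Calr3 at 1.44, Pdia4 at 0.55, Sdf2l1 at -1.36 and Canx at -0.61. Pdilt and Calr3 are testis forms, as is Clgn, which did not pass at -0.19. Among 18 chaperonin and prefoldin genes 3 rose and 4 fell (38.9%), with Cct8l1 at 1.70, Vbp1 at 1.19, Pfdn2 at -1.15 and Pfdn4 at -0.98. Of 11 small heat shock protein genes 2 passed (18.2%): Odf1, of the sperm tail's outer dense fibres, rose by 0.40 and Hspb6 fell by -0.39. No partner passed for KO against WT in pachytene cells or over both cell types.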

How the data were processed

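The deposited values are linear intensity, 1 per transcript cluster and array. The submitters' processing notes name RMA and Affymetrix Expression Console 1.1. Their settings and the genome build were not given in the sources used here. Log2 was taken of the deposited intensity. The platform annotation gave 1 symbol to 21789 of 35556 clusters, and symbols were checked through RefSeq (GRCm38.p6), with none changed.

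Genes that reached log2 6 on any array entered limma 3.58.1 in R 4.3.3 (lmFit and eBayes), with Benjamini-Hochberg adjustment over all of them and a threshold of 0.05. An additive model with terms for both factors (3 residual degrees of freedom) gave the effects over both genotypes or both cell types, and a fit with 4 groups (2 residual degrees of freedom) the others. KO against WT in round spermatids has no test. The scripts were tested on simulated data. The number of arrays limits the precision.

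The members, roles, lists and rules were chosen with earlier results of these data known. Named were all Hsp genes, J proteins past the threshold for cell type, the testis-biased ones, the 6 brightest J proteins, those nearest the level threshold, the 4 largest differences per direction between genotypes, and up to 4 partners per list. Dnaja1, Dnaja2, Dnajb4, Dnajb6, Dnajb11, Pdia4 and Clgn were named after their values were seen. Alternatives were a second quantile normalization, other level filters, another variance prior, the mean of a gene's clusters, 16 added before log2, the replicate number as a block, and each array left out.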

Additional observations from a re-analysis of the deposited data

Results flagged for a closer look

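For 8 members both KO pachytene arrays lay on one side of both WT arrays while the KO round spermatid array lay on the other side of the WT one. The share of all tested genes with this pattern was not counted, so the count is no result about the members. In pachytene cells alone both KO arrays lay above both WT arrays in 14.9% of all tested genes and below in 10.2%. The difference between the cell types was not tested in this form, and the interaction passed for no member in limma. In round spermatids the KO minus WT difference was -0.15 for Dnaja3, -0.055 for Hspa9, -0.045 for Hspa12a, -0.021 for Dnajb8, -0.016 for Dnajc5b, -0.012 for Dnajc7 and -0.0024 for Dnajb13, each with higher KO values in pachytene cells, and 0.13 for Dnajb5, with lower ones. With 1 spermatid array per genotype there is no spread to set these values against.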

How the results depend on the processing

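For cell type, between 25 and 30 members passed in the 7 settings that kept all arrays, and 24 of the 25 passed in each of them. Leaving out 1 array gave 9 to 32 members, 6 to 18 of them higher and 3 to 14 lower. Without WT pachytene array 2, 7 were lower. Within WT, where 10 passed, a trended and robust variance prior gave 16 and leaving out 1 array 3 to 17. Within KO, where 9 passed, they gave 14 and 4 to 15. With the replicate number as a block 25 passed for cell type, with Dnajc13 lost and Dnajb11 gained, and within KO 12, with Dnajc18, Hspa1a and Hspa12b lost. The labels do not say that equal numbers share a preparation, and their deviations correlated at -0.23 over the pachytene pairs. The block gave 0 members for genotype in pachytene cells, as did a crossed pairing chosen after seeing the data. In the comparisons of genotypes and the interaction 0 members passed in every setting run. Of the values for single genes 948 stayed on their side of the threshold, 38 lost it and 18 gained it. A reversed sign was counted only for a value past the threshold in the main or the altered fit, and 0 were found. For cell type, 14 members that did not pass changed sign in some setting. The 2 spermatid arrays, 1 per genotype, limit most of these calls.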
